A study of Mus musculus with 10 samples.

Results

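Cxcl1, Cxcl2, Cxcl3, Cxcl5, Ppbp, Ereg, Rassf6 and Mthfd2l are 8 of the 23337 genes measured in each library, and all lie within 491 kb of mouse chromosome 5. They were chosen by name because they stood lower together in cells labelled as lacking Slfn2, a Schlafen family gene, so the difference between genotypes is how they were picked and is given here as a description without a test. RNA was sequenced from 10 libraries of mouse embryonic fibroblasts, cells of embryonic connective tissue, in immortalised form. Per its label, each library came from Slfn2 wild-type (WT-labelled) or Slfn2 knockout (KO-labelled) cells. Mouse interferon-β (IFN-β), a type I interferon, was added at 5000 IU/ml for 6 h to 3 WT-labelled and 2 KO-labelled libraries, and the untreated groups had 3 and 2 libraries. The series' title ties Slfn2 to interferon responses and to NF-κB, the transcription factor family that drives many inflammatory genes.

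Per the labels, replicates are wells plated from WT and KO cells, so each p-value measures the spread between libraries and not between independently derived lines. The labels do not say how the lines were derived, how many there were, or which bases of Slfn2 are deleted. Slfn2 itself held 18.7, 17.4 and 15.5 normalised reads in WT-labelled untreated libraries and 46.1 and 34.9 in KO-labelled ones. With IFN-β it held 527, 449 and 573 in WT-labelled and 75 and 171 in KO-labelled libraries, and reads over the whole gene cannot check a deletion whose position is not stated. The libraries held 13565815 to 16329729 reads. Of the fibroblast markers, all 10 were present above 3 reads in at least 1 library, and their summed level was 207041 to 310551 normalised reads in WT-labelled and 299562 to 468820 in KO-labelled untreated libraries. The matrix genes Dcn and Lum among them were low in KO-labelled cells: Dcn held 1702, 2005 and 1567 normalised reads in WT-labelled and 81.8 and 77.3 in KO-labelled untreated libraries, and Lum held 45, 47.4 and 15.5 against 1.05 and 0.942. Their part in the results below was not tested. Libraries with the same replicate number resembled each other across groups, and what a number marks is not stated in the labels.

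The 5 chemokines among the 8 genes are small secreted proteins of the CXC class that carry the residues glutamate, leucine and arginine just before their first cysteines. Chemokines with that motif act on the receptor CXCR2 and draw neutrophils into tissue. Fibroblasts are known to make CXCL1, CXCL2 and CXCL5 when NF-κB is activated by cytokines such as interleukin-1 and interleukin-17, and messages of this class are short-lived. Ppbp encodes platelet basic protein, a precursor cut to CXCL7 and best known from platelets. Ereg encodes epiregulin, a ligand of the epidermal growth factor (EGF) receptor. Rassf6 encodes a Ras-association domain protein of a family linked to apoptosis and Hippo signalling, and Mthfd2l a mitochondrial enzyme of folate metabolism.

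In GRCm38 coordinates on chromosome 5, Rassf6 is the first of the 8 genes, at 90603076 to 90640657 on the minus strand. The other 7 genes lie on the plus strand. Cxcl5 is at 90759360 to 90761624, Ppbp at 90768518 to 90770063, Cxcl3 at 90786103 to 90789600, Cxcl1 at 90891241 to 90893115 and Cxcl2 at 90903871 to 90905938. Mthfd2l spans 90931117 to 91021368 and Ereg 91074622 to 91093646. GENCODE M21 annotates all 8 as protein-coding.

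The stretches of coding sequence around the receptor-binding motif show what the 5 chemokines share, with the 3 codons for glutamate, leucine and arginine in capitals (GENCODE M21 transcripts, 5′ to 3′).
Cxcl1: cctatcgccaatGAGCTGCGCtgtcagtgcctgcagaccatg
Cxcl2: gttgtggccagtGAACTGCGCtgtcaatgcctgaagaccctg
Cxcl3: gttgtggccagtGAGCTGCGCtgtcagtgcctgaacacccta
Cxcl5: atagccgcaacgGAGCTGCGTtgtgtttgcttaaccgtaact
Ppbp: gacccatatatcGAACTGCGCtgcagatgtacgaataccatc

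Cxcl2 and Cxcl3 are the closest pair, with 89.8% identity over aligned coding sequence and an identical run of 110 bases in their messages. Cxcl1 was 75.6% identical to Cxcl2 and 72.6% to Cxcl3, with identical runs of 23 bases. Every pair with Cxcl5 or Ppbp had 48.3% to 54.1% identity and shared runs of 10 to 12 bases. Reads inside the 110-base run cannot be assigned to Cxcl2 or Cxcl3, so how their reads divide is uncertain. How the authors treated such reads is not given in the sources used here.

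Promoter sequence from RefSeq (GRCm38.p6) was matched for 6 of the 8 genes, and Cxcl5 and Ereg were not matched. A stretch of 120 bases ending at base -25 from the start is shown for 4 of the chemokines, because it holds the letters that differ between the Cxcl1, Cxcl2 and Cxcl3 group and Ppbp. Capitals mark matches on either strand to a form of the NF-κB motif (GGG, any 3 bases, then TTCC) and to TATAAA.
Cxcl1, chr5:90891101-90891220, plus strand: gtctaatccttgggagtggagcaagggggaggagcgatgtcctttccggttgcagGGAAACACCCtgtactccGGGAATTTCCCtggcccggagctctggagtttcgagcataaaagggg
Cxcl2, chr5:90903755-90903874, plus strand: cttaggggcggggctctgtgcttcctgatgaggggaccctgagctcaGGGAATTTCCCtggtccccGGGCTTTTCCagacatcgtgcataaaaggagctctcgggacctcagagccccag
Cxcl3, chr5:90785957-90786076, plus strand: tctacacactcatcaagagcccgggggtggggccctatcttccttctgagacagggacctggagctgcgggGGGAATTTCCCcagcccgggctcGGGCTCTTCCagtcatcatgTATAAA
Ppbp, chr5:90768374-90768493, plus strand: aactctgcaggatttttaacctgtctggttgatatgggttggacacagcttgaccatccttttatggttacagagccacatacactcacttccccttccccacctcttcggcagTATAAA

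Matches to the NF-κB motif began at bases -89, -71 and -70 in Cxcl1, at -97, -96 and -78 in Cxcl2, and at -73, -72 and -50 in Cxcl3. Matches at neighbouring bases overlap on opposite strands and form 1 run of capitals. The windows from 250 bases before to 50 after the start held no match in Ppbp, Rassf6 and Mthfd2l. Of 32851 promoters in the table, 4.65% held a match, and 12.4% held TATAAA. The interferon-response letters (TTTC, any 2 bases, then TTTC, on either strand) were in 2.98% of promoters and, among the 6 matched genes, in Mthfd2l. These are matches of letters and show neither binding nor use of a site.

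Cxcl5 was the chemokine with the largest difference between the labelled genotypes. It held 1506, 3648 and 3791 normalised reads in WT-labelled untreated libraries and 2.1 and 5.65 in KO-labelled ones. IFN-β libraries held 1804, 3297 and 3071 when WT-labelled and 2.11 and 5.47 when KO-labelled. The groups did not overlap, and the KO-labelled values came from 8 reads in each treatment. Group means were 2982 ± 1280 (SD, n = 3) against 3.87 ± 2.51 (SD, n = 2) untreated, a ratio of 770 with a 95% counting interval of 387 to 1766. With IFN-β the means were 2724 ± 805 and 3.79 ± 2.37, a ratio of 719 (355 to 1621). Intervals on ratios cover counting error only.

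Cxcl3 held 32.9, 66.8 and 52.6 normalised reads in WT-labelled untreated libraries and 44.3, 53 and 53.9 with IFN-β. Its KO-labelled values were 0 and 0.942 untreated and 0 and 1.82 after IFN-β, which is 1 read and 2 reads in all. The WT-labelled mean was 108 times the KO-labelled mean untreated (interval 18.3 to 4127) and 55.3 times it with IFN-β (14 to 430). The 6 WT-labelled values all lay above the 4 KO-labelled values. Among the low chemokines, Cxcl3 varied least between WT-labelled libraries, at 50.8 ± 17 untreated and 50.4 ± 5.31 with IFN-β (SD, n = 3 each).

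Cxcl1 varied much more between WT-labelled libraries. It held 3.29, 45.5 and 101 normalised reads untreated and 9.27, 31 and 53.9 with IFN-β, and the library numbered 1 was the lowest in both treatments. KO-labelled untreated libraries held no read of Cxcl1, and the IFN-β libraries held 0 and 1.82. The WT-labelled mean was at least 16.7-fold higher untreated, taking 3 reads per library as the floor, and 34.5 times the KO-labelled mean with IFN-β (interval 8.78 to 273). WT-labelled untreated library 1, at 3 reads, was itself at the floor.

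Cxcl2 was the lowest of the 8 genes per length of message in WT-labelled cells. It held 3.29, 10.7 and 37.2 normalised reads untreated and 4.12, 2 and 30.8 with IFN-β in WT-labelled libraries, and 0, 1.88, 1.06 and 0.911 in the 4 KO-labelled libraries in the same order of treatments. The ratio of means was 18.1 untreated (4.55 to 147) and 12.5 with IFN-β (3.34 to 110). The number 3 libraries carried most of the WT-labelled level, and WT-labelled IFN-β library 2, at 2 reads, was itself under the floor.

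Ppbp kept a measurable level in KO-labelled cells. WT-labelled libraries held 2400, 1392 and 1091 normalised reads untreated and 2276, 1284 and 1032 with IFN-β. KO-labelled libraries held 257 and 56.5 without IFN-β and 396 and 47.4 with it. The groups did not overlap, with means of 1628 ± 686 and 157 ± 142 untreated (ratio 10.4) and 1531 ± 658 and 222 ± 247 with IFN-β (ratio 6.9). Within libraries of the same number the ratio was 9.34 and 5.75 for number 1 (untreated and IFN-β) and 24.6 and 27.1 for number 2. The platelet markers Gp9 and Gp1ba, which would accompany Ppbp in platelets, were at or under 3 reads in every library. The summed platelet and megakaryocyte marker list of 5 genes was nonetheless 256 to 355 in WT-labelled and 662 to 1622 in KO-labelled untreated libraries, opposite in direction to Ppbp, and Itgb3 made up most of it (580 and 1328 of the KO-labelled untreated reads).

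Ereg varied widely between replicates. WT-labelled libraries held 4752, 699 and 1748 normalised reads untreated and 4385, 841 and 1402 with IFN-β, while KO-labelled libraries held 1629 and 142 without IFN-β and 2176 and 246 with it. The groups overlapped in both treatments, because KO-labelled libraries numbered 1 lay above WT-labelled libraries numbered 2. The means gave a ratio of 2.71 untreated and 1.82 with IFN-β, each within the spread of the libraries. Within a number the ratio was 2.92 and 2.02 for number 1 and 4.91 and 3.42 for number 2, so the KO-labelled library was the lower in each of these comparisons.

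Rassf6 held 90, 34.9 and 43.4 normalised reads in WT-labelled untreated and 60.8, 40 and 35.6 in WT-labelled IFN-β libraries. KO-labelled libraries held 40.9 and 8.48 without IFN-β and 46.5 and 3.65 with it. The groups overlapped in both treatments, with ratios of 2.27 and 1.81. Mthfd2l had the smallest ratio between genotypes of the 8 genes. It held 418, 457 and 397 normalised reads in WT-labelled untreated libraries against 270 and 237 in KO-labelled ones, and 428, 506 and 413 against 296 and 252 with IFN-β. Its groups did not overlap, with means of 424 ± 30.2 and 254 ± 23.4 untreated (ratio 1.67) and 449 ± 49.7 and 274 ± 30.6 with IFN-β (ratio 1.64).

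**Figure D1:**
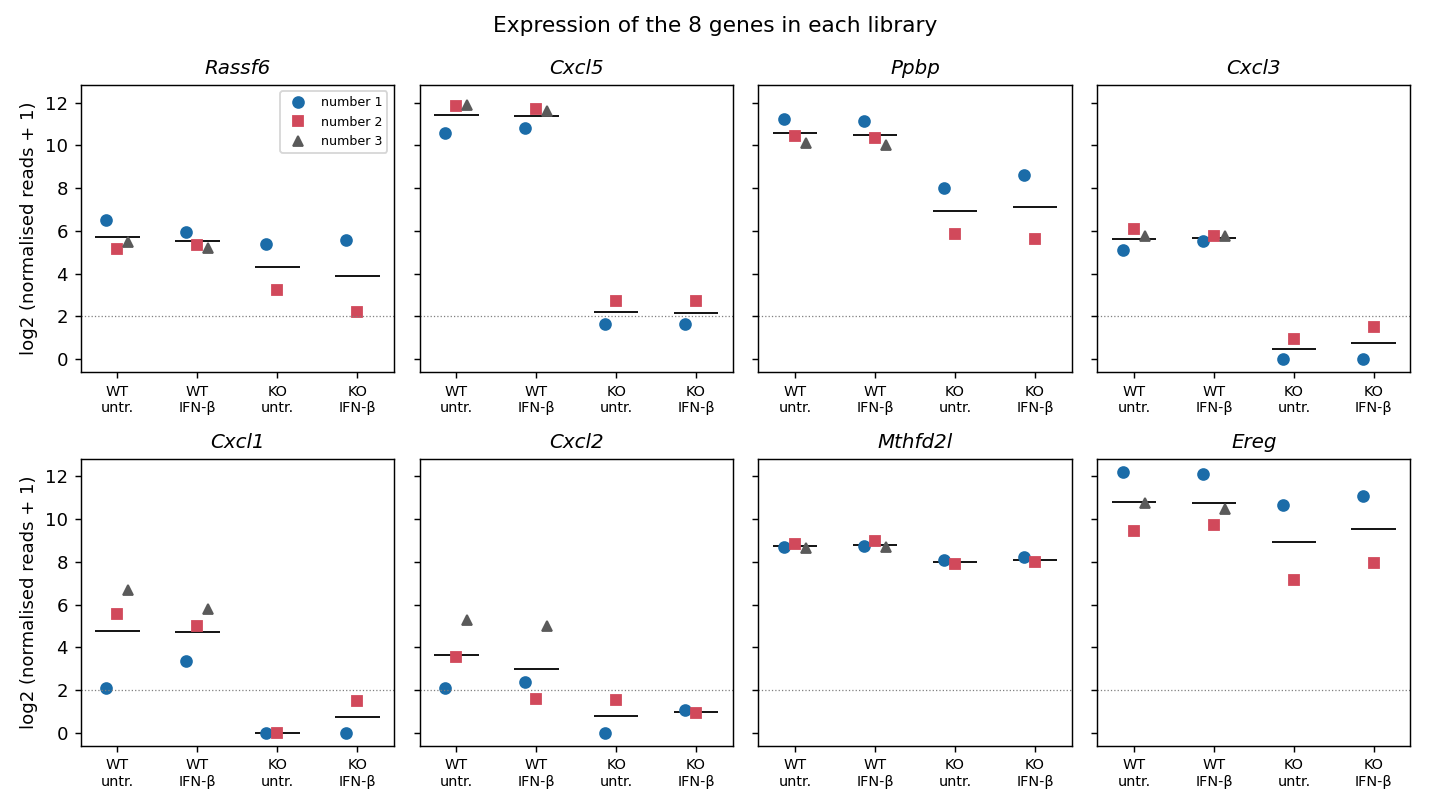
Level of each of the 8 genes in each of the 10 libraries, as log2 of normalised reads plus 1, in chromosome order. Points are libraries marked by replicate number, horizontal bars are group means on the log2 scale, and the dotted line is at 3 normalised reads. Cxcl5, Cxcl3, Cxcl1 and Cxcl2 lie near or under that line in KO-labelled cells, whereas Ereg and Rassf6 overlap between genotypes and are highest in number 1.

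Thus 6 of the 8 genes had every KO-labelled library below every WT-labelled library in each treatment, and Ereg and Rassf6 did not. Of all 12313 genes tested, 15.9% showed this untreated and 20.4% with IFN-β, and 9.83% had all 4 KO-labelled libraries below all 6 WT-labelled ones. No share was computed for both treatments at once. For Cxcl2 the separation rested on few reads. Its lowest WT-labelled and highest KO-labelled values were 3.29 and 1.88 normalised reads untreated and 2 and 1.06 with IFN-β. In the 4 comparisons of libraries with the same number and treatment, all 8 genes were lower in the KO-labelled library each time, as were 27.5% of all genes tested. The genes were chosen for this direction, so these counts describe the choice. The smallest difference was that of Mthfd2l, with log2 differences (KO-labelled minus WT-labelled) of -0.74 untreated and -0.71 with IFN-β. All 8 passed the low-count filter, but Cxcl1, Cxcl2, Cxcl3 and Cxcl5 did so through the WT-labelled libraries. In bulk RNA, fewer cells expressing a gene and less RNA per cell cannot be told apart.

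Per kilobase of message, the order of mean levels in WT-labelled untreated cells was Cxcl5 (1893 ± 812 normalised reads per kb), Ppbp (1503 ± 633), Ereg (581 ± 510), Mthfd2l (197 ± 14), Cxcl1 (52.5 ± 51.5), Cxcl3 (50 ± 16.7), Rassf6 (28.6 ± 15.2) and Cxcl2 (9.16 ± 9.58). Cxcl5 and Ppbp did not differ beyond their spread, and neither did Cxcl1, Cxcl3 and Rassf6. In KO-labelled untreated cells Ereg came first, at 215 ± 255, then Ppbp at 145 ± 131 and Mthfd2l at 118 ± 10.8, with overlapping spreads. Cxcl5, first in WT-labelled cells, was at 2.46 ± 1.6 per kb in KO-labelled cells.

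Neighbouring genes on chromosome 5 were described in the same way, over 1 Mb on either side of the 8 genes. The files list 20 further genes there, and 17 of them held at least 10 reads over all libraries. Of these 17, 3 had every KO-labelled library below every WT-labelled one in both treatments (Afp, Cxcl15 and the unnamed-function gene 5830473C10Rik). Another 3 had every KO-labelled library above (Adamts3, Cdkl2 and Thap6), and 11 overlapped in at least 1 treatment. Of all genes tested, 15.9% had every KO-labelled library below every WT-labelled one untreated and 20.4% with IFN-β. No share was computed for every KO-labelled library above. Cxcl15 and 5830473C10Rik did not pass the low-count filter. Untreated, scaling alone separated Cxcl15, at 1 read each in WT-labelled library 3 (1.03) and KO-labelled library 2 (0.942). With IFN-β, 5830473C10Rik held 2 reads in WT-labelled library 2 and 1 in KO-labelled library 2. Afp, which encodes the fetal serum protein alpha-fetoprotein, held 15.4, 22.3 and 26.8 normalised reads in WT-labelled untreated libraries and 0 and 1.88 in KO-labelled ones. Its ratio was 22.8 untreated (interval 5.79 to 184) and at least 5.61 with IFN-β. Cxcl15, a further CXC chemokine gene between Cxcl3 and Cxcl1, had 38 reads in all, 1 of them from KO-labelled cells. Between libraries of the same number and treatment, Afp, Cxcl15, 5830473C10Rik, Pf4, Epgn, Areg and G3bp2 were lower in the KO-labelled library each time. Adamts3, Cdkl2, Thap6 and Rchy1 were higher each time, and the others of the 17 were mixed. Of all genes tested, 27.5% were lower each time, and no share was computed for higher each time. That share covers genes that passed the low-count filter, as 11 of the 17 did. Among those 11, Afp, Areg and G3bp2 were lower each time. Pf4 and Epgn, like Cxcl15 and 5830473C10Rik, did not pass the filter. Scaling alone separated Pf4 with IFN-β in number 2, at 2 reads in each library.

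Differences in the opposite direction lay on both sides of the 8 genes. Adamts3, a protease that processes procollagen and a vascular growth factor, held 15.4, 25.2 and 6.19 normalised reads in WT-labelled untreated libraries and 233 and 275 in KO-labelled ones. The KO-labelled mean was 16.3 times the WT-labelled mean untreated and 13 times it with IFN-β. Cdkl2, a protein kinase gene, was 4.46 times higher untreated (84.3 ± 37.9 against 376 ± 43.9) and 4.6 times higher with IFN-β. Ankrd17, in the same window, had nearly equal means of 4952 ± 258 and 4870 ± 171 untreated.

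The genes of 3 further EGF-receptor ligands lie near Ereg. Areg, which encodes amphiregulin, held 83.5, 6.78 and 25.8 normalised reads in WT-labelled untreated libraries and 16.8 and 4.71 in KO-labelled ones, so its groups overlapped. Within a number the KO-labelled library was the lower each time for Areg too. The ratio was 4.97 and 3.3 for number 1 (untreated and IFN-β) and 1.44 and 1.37 for number 2, the latter from few reads. Btc, which encodes betacellulin, held 70.3, 15.5 and 46.5 against 28.3 and 52.8, again overlapping. Epgn, which encodes epigen, had 38 reads over all 10 libraries. Pf4, the platelet chemokine gene next to Ppbp, had 20 reads in all, and no library exceeded 5.15 normalised reads.

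**Figure D2:**
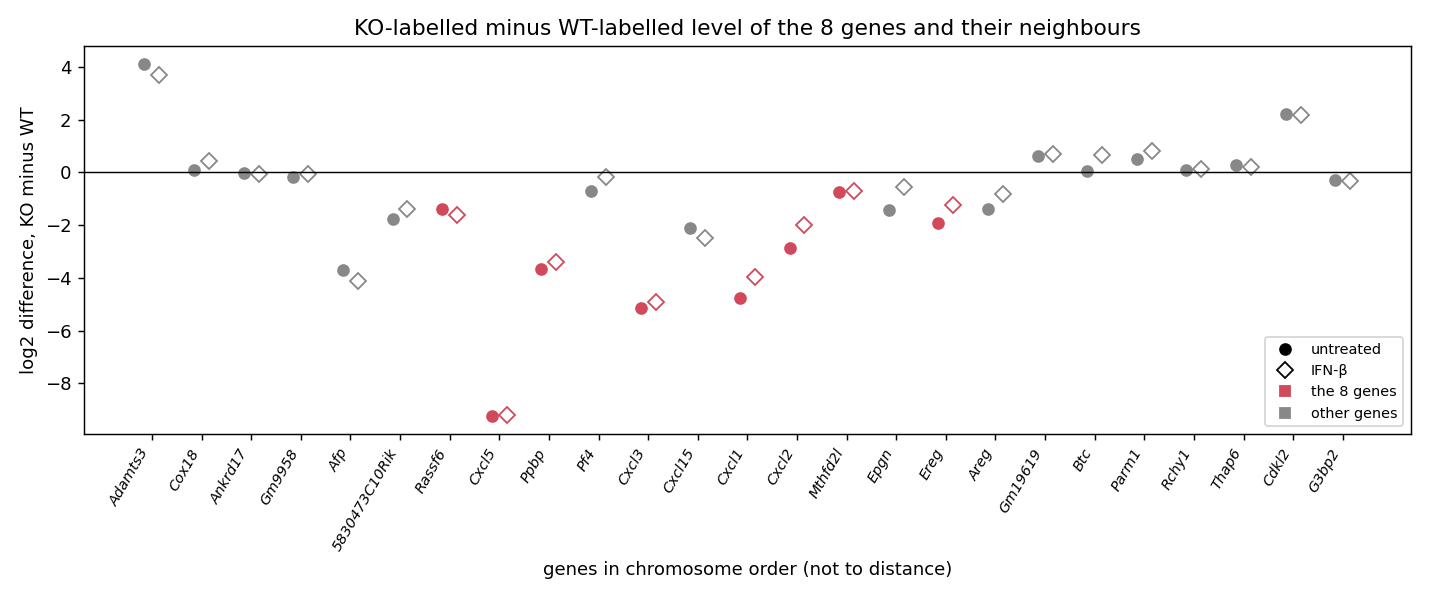
Log2 difference between KO-labelled and WT-labelled group means (on the log2 of normalised reads plus 1) for the 8 genes in red and 17 neighbours in grey, in chromosome order, untreated (filled circles) and with IFN-β (open diamonds). The 8 genes lie below 0, Cxcl5 lowest at -9.24 and -9.20, and so do some neighbours such as Afp (-3.69 and -4.12). Adamts3 and Cdkl2 lie above 0 and Ankrd17 near 0.

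In WT-labelled cells, 0 of the 8 genes passed the test for IFN-β, against 2.21% of all genes tested (limma, Benjamini-Hochberg adjusted p under 0.05). Their median log2 fold change was -0.06, where the median of all genes was -0.03. In KO-labelled cells Cxcl1, Cxcl2, Cxcl3 and Cxcl5 held too few reads to be tested, and 0 of the other 4 genes passed, against 1.84% of all genes. None of these had an unadjusted p under 0.05 in either genotype by limma without a block, edgeR or DESeq2. With the replicate number as a block 4.95% of all genes passed in WT-labelled and 3.48% in KO-labelled cells, and again 0 of these genes.

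In WT-labelled cells the log2 fold changes with IFN-β were -0.06 ± 0.47 (SE) for Cxcl5, 0.04 ± 0.51 for Cxcl3, -0.06 ± 1.1 for Cxcl1, -0.66 ± 1.04 for Cxcl2 and -0.09 ± 0.79 for Ppbp. Ereg gave -0.06 ± 1.15, Rassf6 -0.21 ± 0.86 and Mthfd2l 0.08 ± 0.16. Adjusted p was 1 for all 8 by limma. These standard errors include what libraries of a number share. With the block they narrowed to 0.14 for Cxcl5, 0.20 for Ereg, 0.39 for Ppbp and 0.46 for Rassf6, and stood at 0.63 for Cxcl1 and 0.57 for Cxcl2. Mthfd2l was higher with IFN-β in 5 of 5 pairs of libraries with the same number and genotype, and no share of all genes was computed for this. With the block its standard error was 0.13 in WT-labelled cells. It did not pass there (limma adjusted p = 0.79) or in KO-labelled cells (0.97).

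Among KO-labelled libraries Cxcl1, Cxcl2 and Cxcl3 were at or under 3 reads per library in both treatments, and Cxcl5 was so in the libraries numbered 1, so no fold change is given for them. Ppbp gave 0.19 ± 0.97, Ereg 0.60 ± 1.41, Rassf6 -0.42 ± 1.05 and Mthfd2l 0.11 ± 0.20, each with an adjusted p of 1 by limma. The test of whether the response differs between genotypes gave 0.28 ± 1.25 for Ppbp, 0.66 ± 1.82 for Ereg, -0.21 ± 1.36 for Rassf6 and 0.03 ± 0.25 for Mthfd2l. No gene passed it by limma or edgeR, at 0% of 12313 genes, with 36 genes at an unadjusted p under 0.05 by limma and 39 by edgeR. DESeq2 called 1 gene, with 39 under that level. Far more genes than this would fall under 0.05 if p-values were evenly spread. The test is thus conservative, and its lack of calls decides little. With the block its standard errors narrowed to 0.62 for Ppbp, 0.31 for Ereg, 0.72 for Rassf6 and 0.20 for Mthfd2l, and no gene passed. For the KO-labelled response they narrowed to 0.48, 0.24, 0.56 and 0.16 in that order.

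The interferon-inducible CXC chemokine genes, which lie outside the region and draw T cells rather than neutrophils, did respond in the same libraries. Of 10 other CXC chemokine genes, 4 passed the low-count filter, and Cxcl9, Cxcl10 and Cxcl11 rose in both genotypes while Cxcl12 did not pass. Cxcl10 rose by 6.47 ± 0.37 on the log2 scale in WT-labelled cells (limma adjusted p = 1.6e-05) and by 8.87 ± 0.45 in KO-labelled cells (2.1e-05). The KO-labelled rise started lower, at 65 and 26.4 normalised reads untreated against 419, 574 and 664 in WT-labelled libraries. That untreated difference passed by limma, where 3.23% of all genes were lower. With IFN-β the means were 49125 in WT-labelled and 21088 in KO-labelled cells, a difference that passed only with the block. Cxcl11, annotated as a polymorphic pseudogene, rose by 6.31 ± 0.57 (limma adjusted p = 0.00023) and 7.62 ± 0.70 (0.00037). Cxcl9 rose by 4.72 ± 0.52 (limma adjusted p = 0.00075) and 3.52 ± 0.63 (0.022), and its KO-labelled call was lost with a pseudocount of 5, with edgeR, and without 6 of the 10 libraries in turn (limma adjusted p up to 0.23), the exceptions being the 3 WT-labelled untreated libraries and KO-labelled IFN-β library 1. Untreated, Cxcl9 held 1.1, 0 and 0 normalised reads in WT-labelled libraries and none in KO-labelled ones. Cxcl11 held 2.2, 8.71 and 6.19 against 1.05 and 2.83. The size of the Cxcl9 rises, and of the KO-labelled Cxcl11 rise, therefore depends on the pseudocount. The genotype difference of the Cxcl9, Cxcl10 and Cxcl11 responses did not pass the test.

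**Figure D3:**
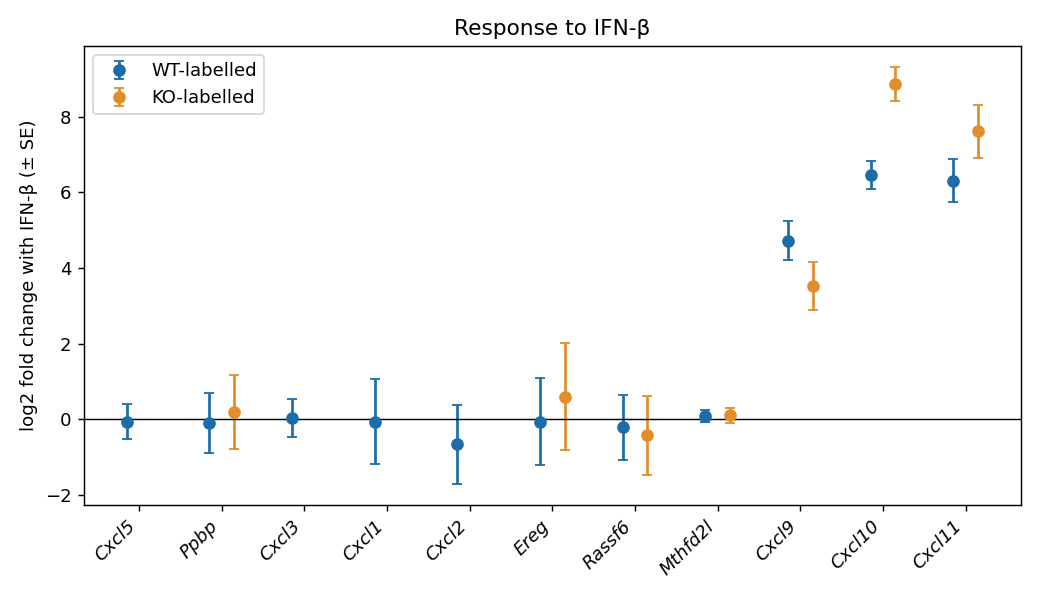
Log2 fold change with IFN-β and its standard error for the 8 genes and for Cxcl9, Cxcl10 and Cxcl11, in WT-labelled (blue) and KO-labelled (orange) cells. The 8 genes lie within 1 unit of 0, while the other 3 rose by 3.52 to 8.87. The sizes for Cxcl9, and for Cxcl11 in KO-labelled cells, depend on the pseudocount. Cxcl1, Cxcl2, Cxcl3 and Cxcl5 have no KO-labelled point because their reads were too few.

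Receptors of these chemokines were close to absent. Of 6 receptor and scavenger genes listed, 4 were among the measured genes (Cxcr1, Cxcr2, Cxcr3 and Cxcr4), and all 4 were at or under 3 reads in every library. Of 6 neutrophil markers, 5 were also at or under 3 reads in every library (S100a8, S100a9, Elane, Mpo and Ngp). The summed neutrophil list was 3.87 to 8.78 normalised reads in WT-labelled and 0.942 to 1.05 in KO-labelled untreated libraries.

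Known inducers and regulators of neutrophil chemokines were followed as a list of 20 genes, of which 18 passed the filter. Between genotypes, Cebpd and Zc3h12a fell in each treatment and no other member of the list passed, where 3.23% of all genes were lower untreated and 3.64% with IFN-β. With the replicate number as a block, 7 were lower and 1 higher untreated, and 6 lower and 1 higher with IFN-β. Under the block 13.1% of all genes were lower and 13.5% higher untreated, and 13.3% lower and 12.7% higher with IFN-β. The inducing cytokines Il1b and Tnf were at or under 3 reads in every library. With IFN-β, Zfp36 rose, by 0.94 ± 0.19 in WT-labelled (limma adjusted p = 0.041) and 1.21 ± 0.24 in KO-labelled cells (0.037), each call lost without 8 of the 10 libraries in turn (adjusted p up to 0.2 and 0.42). The exceptions were KO-labelled IFN-β 1 and 2 for the first and WT-labelled untreated 2 and KO-labelled IFN-β 1 for the second, and the first was also lost with no low-count filter (limma adjusted p = 0.053). Zfp36 encodes tristetraprolin, which speeds the decay of inflammatory messages. With the block Traf3ip2, which encodes an adaptor of the interleukin-17 receptor, passed too, at 0.65 in WT-labelled (limma adjusted p = 0.0093, and 0.89 without the block) and 0.61 in KO-labelled cells (0.048, and 1 without it).

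Cebpd, a transcription factor gene that acts with NF-κB on inflammatory genes, held 748, 1740 and 1064 normalised reads in WT-labelled untreated libraries and 192 and 72.5 in KO-labelled ones. It fell by 3.23 ± 0.49 on the log2 scale untreated (limma adjusted p = 0.0056) and its log2 difference with IFN-β was -2.82 ± 0.49 (0.011), which no longer passed when library 2 of that KO-labelled group was left out (0.093). Zc3h12a encodes Regnase-1, an endonuclease that degrades inflammatory messages, and held 444, 961 and 876 against 81.8 and 204 untreated. Its log2 difference was -2.47 ± 0.56 untreated (limma adjusted p = 0.035) and -2.72 ± 0.56 with IFN-β (0.023). Leaving out 1 library ended the Zc3h12a call for 5 of the 10 libraries untreated (adjusted p up to 0.16) and for 3 of 10 with IFN-β (up to 0.15). Those libraries were WT-labelled numbers 2 and 3 of both treatments and KO-labelled untreated number 1 for the untreated call, and WT-labelled IFN-β numbers 2 and 3 and KO-labelled IFN-β number 1 for the other. Nfkbia, the NF-κB inhibitor gene and itself an NF-κB target, differed by -1.14 ± 0.30 untreated, which did not pass (limma adjusted p = 0.059, and 0.0023 with the block).

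Of 7 other neutrophil-directed cytokine genes, 4 passed the filter, and Il6 fell in untreated KO-labelled cells. It held 240, 119 and 76.4 normalised reads in WT-labelled and 1.05 and 3.77 in KO-labelled untreated libraries, a log2 difference of -5.39 ± 0.59 (limma adjusted p = 0.0011). In KO-labelled cells IFN-β raised it to 251 and 235, by 6.29 ± 0.64 (limma adjusted p = 0.00062). The untreated KO-labelled values came from 5 reads in all. The sizes of the untreated genotype difference and of this rise therefore depend on the pseudocount. WT-labelled cells went to 944, 562 and 322, a change of 2.09 ± 0.53 that passed with the block (limma adjusted p = 0.013) and not without it (0.12). With the block, Ccl3 was also lower in KO-labelled cells in both treatments (limma adjusted p = 0.024 and 0.034), and Il6 was lower with IFN-β (0.031). Csf3, the gene of the neutrophil growth factor G-CSF, was low throughout, at 17.6, 4.84 and 7.23 in WT-labelled and 3.15 and 1.88 in KO-labelled untreated libraries, and did not pass (-1.48 ± 0.72, limma adjusted p = 0.29).

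The gene families of Ereg, Mthfd2l and Rassf6 were followed as lists. Of 11 further EGF-family ligand and receptor genes, 8 passed the filter and 1 fell between genotypes in each treatment, Tgfa, whose product is the EGF-receptor ligand TGF-α. Tgfa held 51.6, 27.1 and 80.5 normalised reads in WT-labelled untreated libraries and no read in the 4 KO-labelled libraries (limma adjusted p = 0.00073 untreated and 0.00056 with IFN-β). It passed the low-count filter through the WT-labelled libraries, so the size of its difference and its p-values depend on the pseudocount. With the block, Egfr, Erbb2 and Hbegf also fell in each treatment, where 13.1% and 13.3% of all genes did. Of 10 folate enzyme genes, 9 passed the filter and 0 changed between genotypes in either treatment by limma, with 3 higher and 2 lower untreated and 2 higher and 1 lower with IFN-β under the block. Of 9 other RASSF genes, 6 passed the filter and Rassf2 fell with IFN-β (-1.23 ± 0.30, limma adjusted p = 0.043), a call lost without 7 of the 10 libraries in turn (adjusted p up to 0.21), all but WT-labelled untreated 1 and 2 and WT-labelled IFN-β 1. With the block Rassf2 passed in both treatments (limma adjusted p = 0.014 and 0.0026), Rassf7 was lower and Rassf3 higher in both, and Rassf5 was higher with IFN-β.

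Replicate number, which played no part in the choice of the 8 genes, separated them further. It was tested in WT-labelled cells for all 8 genes and in KO-labelled cells for the 4 with enough reads there. Between WT-labelled libraries numbered 2 and 1, 4 of the 8 genes passed, Cxcl1 and Cxcl5 higher and Ereg and Ppbp lower in number 2, where 34.6% of all genes passed. Between KO-labelled libraries 3 of the 4 passed, Ereg, Ppbp and Rassf6, all lower in number 2, where 47.2% of all genes passed. Over both genotypes together 48.6% of all genes passed, 25.3% higher and 23.3% lower, so such differences are common in the whole data set. Because the labels do not say what the number marks, no condition can be attached to them.

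In WT-labelled cells Cxcl5 differed by 1.07 ± 0.17 on the log2 scale (limma adjusted p = 0.0033), with number 2 at 2.42 and 1.83 times number 1, a call lost without WT-labelled untreated library 1 (0.055). Cxcl1 differed by 2.54 ± 0.62 (limma adjusted p = 0.017), and this call was lost without WT-labelled untreated library 1 or 2 (up to 0.17). Cxcl3 gave 0.63 ± 0.36 (limma adjusted p = 0.21) and Cxcl2 0.33 ± 0.67 (0.72), neither of which passed. In KO-labelled cells Cxcl5 held 2.1 and 2.11 normalised reads in number 1 and 5.65 and 5.47 in number 2.

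Ereg, Ppbp and Rassf6 were lower in number 2. Over both genotypes Ereg differed by -2.95 ± 0.17 (limma adjusted p = 4.5e-05), with number 2 at 0.147 and 0.192 of number 1 in WT-labelled cells and at 0.0873 and 0.113 in KO-labelled cells. Ppbp differed by -1.70 ± 0.34 (limma adjusted p = 0.0041) and Rassf6 by -1.86 ± 0.40 (0.0058). These 3 calls over both genotypes passed with each pseudocount, filter, scaling and tool tried and without each library in turn. In WT-labelled cells alone Rassf6 did not pass (-0.97 ± 0.35, limma adjusted p = 0.062). Mthfd2l did not differ beyond its error (-0.01 ± 0.11, limma adjusted p = 0.94).

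The Ppbp difference between numbers was larger in KO-labelled cells. It was -0.81 ± 0.19 in WT-labelled cells (limma adjusted p = 0.014), where number 2 was at 0.58 and 0.564 of number 1, a call lost without the number 1 library of either treatment (up to 0.093). It was -2.60 ± 0.19 in KO-labelled cells (limma adjusted p = 5.1e-05), where number 2 was at 0.22 and 0.12. The test of the difference gave -1.79 ± 0.26 (limma adjusted p = 0.011), and 4.4% of all genes passed that test. It was lost without KO-labelled untreated 1, IFN-β 1 or IFN-β 2 (limma adjusted p up to 0.07), with values of -2.23 to -1.36 over the libraries left out. Rassf6 gave -1.78 ± 0.49 (limma adjusted p = 0.088), Ereg -0.75 ± 0.21 (0.098) and Mthfd2l -0.39 ± 0.16 (0.22), none of which passed.

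Of the 8 EGF-family genes that passed the filter, 3 were also lower in number 2 (Areg, Egfr and Hbegf) and 0 were higher. Of all genes tested, 23.3% were lower and 25.3% higher in number 2. Hbegf, the gene of heparin-binding EGF, held 1886, 280 and 475 normalised reads in WT-labelled untreated libraries and 1334 and 135 in KO-labelled ones, with a difference of -2.77 ± 0.15 (limma adjusted p = 3e-05). Areg gave -2.48 ± 0.36 (limma adjusted p = 0.001), and Egfr -0.43 ± 0.13 (0.024), a call lost without 6 of the 10 libraries in turn, all but WT-labelled untreated 3 and the 3 WT-labelled IFN-β libraries. Among the regulators, 5 of 18 were higher in number 2, where 25.3% of all genes were, Zc3h12a by 1.19 ± 0.12 (limma adjusted p = 0.00025). Another 4 were lower, where 23.3% of all genes were, among them Il1a and Tnfaip3 (-1.91 ± 0.33, limma adjusted p = 0.0023). Il1a, with at most 3 reads in KO-labelled libraries, gave -3.80 ± 0.46 in WT-labelled cells alone (limma adjusted p = 0.0012). WT-labelled libraries numbered 2 were under 3 reads of Il1a too, at 1.94 and 2 normalised reads against 39.5 and 41.2 in number 1. The size of this difference therefore depends on the pseudocount. Il1a encodes the inducing cytokine interleukin-1α and Tnfaip3 the NF-κB inhibitor A20.

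**Figure D4:**
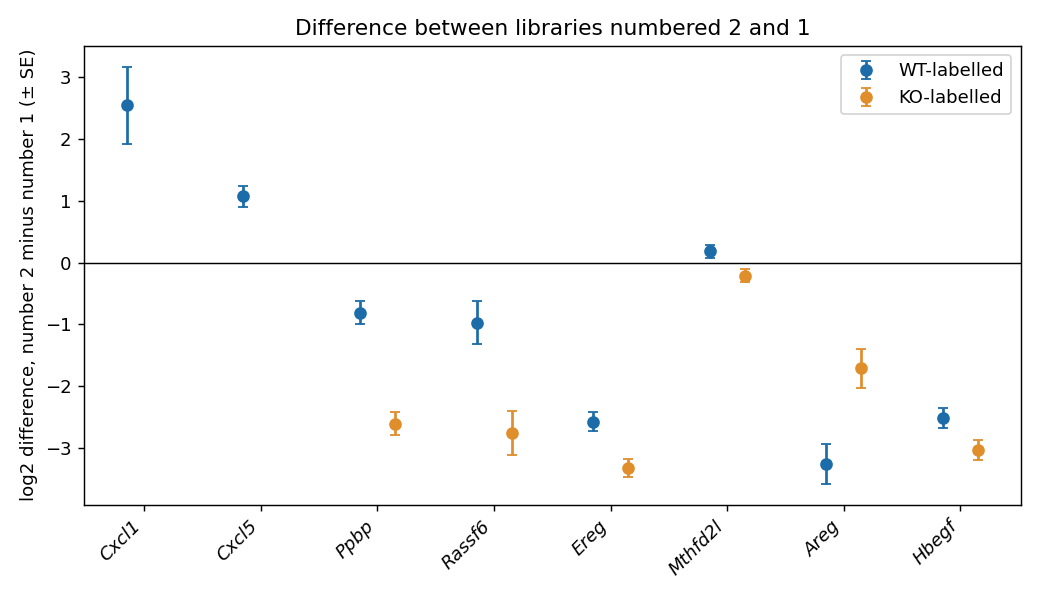
Log2 difference between libraries numbered 2 and 1, with its standard error, fitted separately in WT-labelled (blue) and KO-labelled (orange) cells for 6 of the 8 genes and for Areg and Hbegf. Cxcl1 (2.54 ± 0.62) and Cxcl5, shown for WT-labelled cells because their KO-labelled reads were too few, lie above 0, Ppbp, Rassf6 and Ereg below 0, and the Ppbp values are -0.81 and -2.60. Cxcl2 and Cxcl3 are not drawn, and their WT-labelled values of 0.33 ± 0.67 and 0.63 ± 0.36 did not pass the test.

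The genes whose profile over the 10 libraries was most like the mean profile of the 8 genes were Tubb2b (Pearson r = 0.993 across 10 libraries), Dhx38 (0.989), Mtx2 (0.988), Ly9 (0.986) and Mapkapk3 (0.985), out of 10226 candidates. These correlations rest largely on the difference between the labelled genotypes, which all libraries share, and are given as a description. Tubb2b, a β-tubulin gene, held 795, 877 and 807 normalised reads in WT-labelled and 237 and 158 in KO-labelled untreated libraries. Ly9, an immune-cell surface receptor gene, held 73.6, 71.7 and 78.5 against 5.24 and 3.77.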

How the data were processed

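RNA was sequenced from 10 libraries in 4 labelled groups. The submitters' processing notes name cutadapt 1.13, STAR 2.5.2a, HTSeq, DESeq2 and the mm10 build, with no order or settings. Annotation, strand setting and filters are not given in the sources used here. The deposited values are a signal per gene, in which the authors' read counts appear scaled by 1 factor per library. Values were whole multiples of 1 read within a tolerance of 0.001, so whole reads were recovered for the low-count filter and the count tests. The totals of 13565815 to 16329729 reads put a floor of 3 reads per library at 2.73 to 3.29 normalised reads.

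R 4.3.3 and limma 3.58.1 (limma-trend) were used to test log2 of normalised reads plus 1, with 4 group means over all 10 libraries, Benjamini-Hochberg adjustment over 12313 genes that passed filterByExpr (edgeR 4.0.16, minimum count 10), two-sided, at 0.05. The pseudocount understates changes of low genes. Alternatives were pseudocounts of 0.5 and 5, no filter, other scalings, edgeR, DESeq2 1.42.0, the replicate number as a block, and each library left out. The number effect within each genotype, with each library left out, was added after seeing the data. No fold that uses KO-labelled libraries is given for any of the 8 genes with a KO-labelled library at or under 3 reads. The scripts were tested on simulated data. Ratios carry 95% intervals where reads were few. Levels per kb use the longest protein-coding message in GENCODE M21.

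The replicate numbers pair the samples, from the data: deviations from group means correlated at 0.48 to 0.87 in 13 pairs of the same number (limit 0.1) and at -0.87 to 0.32 in 24 pairs of different numbers. Deviations of the 2 libraries in a KO-labelled group mirror each other, so their values for different numbers repeat those for the same number (-0.871 and 0.871). Negative values are thus partly fixed by the centring and are not separate evidence. The reported test has no block.

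The 8 genes and all gene lists were chosen with earlier results of these data known. Named genes are the 8, the neighbours within 1 Mb with at least 10 reads, list members that passed plus at most 4 others per list, the 5 most alike in profile (average log2 CPM of at least 1, no clone names) and Slfn2. Dcn, Lum and Itgb3 were named after their values were seen.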

Additional observations from a re-analysis of the deposited data

Results flagged for a closer look

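The difference between libraries numbered 2 and 1 was not the same in both genotypes for Ppbp. The test of the difference (KO-labelled minus WT-labelled) gave -1.79 on the log2 scale (limma adjusted p = 0.011, and up to 0.07 without 1 of 3 KO-labelled libraries), and number 2 was the lower in each of the 4 pairs.

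For Mthfd2l both WT-labelled pairs were higher in number 2 (1.09 and 1.18 times) and both KO-labelled pairs lower (0.878 and 0.854 times). The difference of -0.39 on the log2 scale did not pass the test (limma adjusted p = 0.22).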

How the results depend on the processing

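With the replicate number as a block, 609 genes passed for IFN-β in WT-labelled and 429 in KO-labelled cells, and 1612 and 1637 genes were lower in KO-labelled cells untreated and with IFN-β, but no call on the 8 genes in WT-labelled cells, or on the 4 with enough reads in KO-labelled cells, changed for IFN-β. The lowest unadjusted p among them was then 0.035, for Ereg in KO-labelled cells (adjusted p = 0.37). DESeq2 called 410 genes for IFN-β in WT-labelled cells, 1 for the difference in response, and 763 and 792 lower in KO-labelled cells.

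Without each library in turn, the genes called were 134 to 218 for IFN-β in KO-labelled cells, 219 to 376 lower in KO-labelled cells untreated and 186 to 465 with IFN-β. A pseudocount of 5 moved the genotype difference of Cxcl3 to -3.31 untreated and -3.24 with IFN-β, of Cxcl5 to -8.31 and -8.26, and of Cxcl1 with IFN-β to -2.42, and a pseudocount of 0.5 moved Cxcl3 to -5.86.

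Some uncalled values changed sign, and the cause was not tested. With edgeR and DESeq2 these were Cxcl3 for IFN-β in WT-labelled cells (-0.01), Rassf6 for IFN-β in KO-labelled cells (0.01) and the Rassf6 difference in response (0.31). Mthfd2l between numbers was 0.18 in WT-labelled cells alone.
Leaving out 1 library gave these ranges on the log2 scale for values that did not pass. For IFN-β in WT-labelled cells they were -1.39 to 0.89 for Cxcl1, -1.66 to 0.16 for Cxcl2, -0.24 to 0.26 for Cxcl3, -0.5 to 0.21 for Cxcl5, -0.42 to 0.23 for Ppbp, -0.74 to 0.65 for Ereg, -0.49 to 0.18 for Rassf6 and -0.01 to 0.14 for Mthfd2l. In KO-labelled cells they were -1.33 to 1.7 for Ppbp, -1.15 to 2.36 for Ereg, -2.1 to 1.25 for Rassf6 and -0.01 to 0.22 for Mthfd2l. For the difference in response they were -1.24 to 1.8 for Ppbp, -1.1 to 2.41 for Ereg, -1.89 to 1.47 for Rassf6 and -0.08 to 0.14 for Mthfd2l. Between numbers Mthfd2l ran from -0.08 to 0.06, and Cxcl2 in WT-labelled cells from -0.64 to 1.31.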
